A study of Macaca mulatta with 27 samples.

Results

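The Mediator kinase module was followed through the primed cells and 7 naive conversion protocols of a rhesus macaque (Macaca mulatta) pluripotent stem cell series. It was taken as 7 genes chosen by symbol, the kinases CDK8 and CDK19, the cyclin CCNC, and the scaffold subunits MED12, MED12L, MED13 and MED13L, out of 17967 genes in the deposited read-count tables. Bulk mRNA was sequenced from 27 libraries, of which 6 were primed and 3 came from each of the protocols LCDM (EPS), t2iLGöY, 4i/L/b, NHSM-v, E-NHSM, TL2i and TL-CDK8/19i (labelled TL-CDK8i by the submitters). According to the methods, the cells were LyonES-tGFP-(S3), an embryonic stem cell clone with a tauGFP transgene driven by the ubiquitous CAG promoter and a lentiviral STAT3-ER T2 fusion that tamoxifen activates. All groups carry both transgenes, so that the 8 groups describe 1 clone of 1 line. TL2i combined tamoxifen with leukemia inhibitory factor (LIF) and inhibitors of MEK and GSK3β. In TL-CDK8/19i those inhibitors were exchanged for CNIO-47799, an inhibitor of CDK8 and CDK19, with tamoxifen again present. The other 5 protocols are named media that were used without tamoxifen, so that the fusion stayed inactive. The labels do not say whether libraries of a group came from separate cultures, so p-values measure the spread between these libraries, which may be technical.

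Mediator is the large complex that carries signals from enhancer-bound transcription factors to RNA polymerase II at promoters. Its kinase module binds core Mediator reversibly. In the module, CDK8 or its paralog CDK19 pairs with cyclin C (CCNC), MED12 or MED12L activates the kinase, and MED13 or MED13L tethers the module to the core. The module can block the contact between Mediator and the polymerase, and its kinases phosphorylate transcription factors such as SMADs and NOTCH1, so CDK8 and CDK19 inhibitors have been tried as a means of holding stem cells in a naive state. Counts of mRNA do not measure kinase activity or the paralog that a complex contains.

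Library totals ran from 7111886 to 20760914 counted reads (median 12201171). Levels are given as CPM, the counts of a gene relative to the library total, scaled by edgeR's TMM factors and are compared between groups within 1 gene, since no transcript lengths were used. Each of the 7 genes passed the filter on low counts in all 8 comparisons, and the lowest count of any of them was 50 (CDK19 in a primed library). The summed level of 7 pluripotent cell markers, POU5F1 and NANOG among them, was 5436 to 6130 CPM in primed and 6294 to 6351 CPM in E-NHSM libraries. It was 1514 to 2118 CPM in TL-CDK8/19i and 121 to 514 CPM in the other 5 protocols. DNMT3B gave the largest part in primed cells (mean 3104 CPM, beside 1182 CPM for POU5F1 and 134 CPM for NANOG). In NHSM-v most of the sum was SOX2 (mean 101 CPM). NANOG was at or under 3 counts per library in NHSM-v, 4i/L/b, t2iLGöY and LCDM (EPS). For these mRNAs, that goes against their label as naive stem cells. The paper bases the label on other evidence, such as staining for TFAP2C, KLF4 and TFE3 in 4i/L/b and t2iLGöY. For LCDM (EPS) it reports staining of KLF4 and TFE3 without TFAP2C, and for NHSM-v none of these markers. It also reports that NHSM-v, 4i/L/b, t2iLGöY and LCDM (EPS) cluster nearer to cynomolgus epiblast than primed cells do. The summed level of 9 neural cell markers such as DCX and TUBB3 was 186 to 222 CPM in primed cells and reached 4044 to 4407 CPM in LCDM (EPS).

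Set against primed cells, the number of the 7 module genes that passed the test differed between protocols: 1 in E-NHSM, all 7 in 4i/L/b, 6 in TL2i and 4 in each of NHSM-v, t2iLGöY, LCDM (EPS) and TL-CDK8/19i. In E-NHSM 0 genes were higher and 1 was lower, where 11.1% and 15.1% of all genes were (26.2% together). In NHSM-v 3 were higher and 1 lower (28% and 30.6% of all genes, 58.6% together), and in 4i/L/b 5 and 2 (26.6% and 29%, 55.6% together). In TL2i 4 were higher and 2 lower (25.6% and 25.2%, 50.7% together). In t2iLGöY the counts were 3 and 1 (27.1% and 27.2%, 54.3% together), in LCDM (EPS) also 3 and 1 (28.2% and 28.9%, 57.1% together), and in TL-CDK8/19i again 3 and 1 (22.3% and 23.8%, 46.1% together). Passing was thus common among all genes, and 4 of 7 module genes is a share near this background.

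Module genes whose CPM did not overlap with primed libraries numbered 3 in E-NHSM (29.4% of all genes), 4 in NHSM-v (55.6%), 7 in 4i/L/b (55.7%), 6 in TL2i (50.8%), 5 in t2iLGöY (51.9%), 4 in LCDM (EPS) (55.4%) and 5 in TL-CDK8/19i (46.1%). The median log2 difference of the 7 genes was 0.60 in 4i/L/b, 0.47 in TL2i, 0.33 in TL-CDK8/19i, 0.30 in t2iLGöY, 0.29 in NHSM-v, 0.15 in LCDM (EPS) and -0.02 in E-NHSM, while the median of all genes lay between -0.02 and 0.07. The directions differed from gene to gene, as follows by role.

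The paralogous kinases differed in how far they moved. CDK19 mRNA was higher than in primed cells in 6 of 7 protocols, by 2.51-fold in TL-CDK8/19i to 8.30-fold in t2iLGöY, while CDK8 mRNA was lower in 2 protocols, or in 4 with all 8 groups in 1 fit. The group means of CDK19 spanned 8.18-fold from lowest to highest, and those of CDK8 1.37-fold. These spans were wider than in 87.3% and 1.58% of the 9914 genes whose mean level reached 3 on the log2 CPM scale.

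CDK19, the kinase less studied of the pair, lay between 7.14 and 13.9 CPM in the 6 primed libraries (median 12.8). The 3 t2iLGöY libraries held 91.2, 94.1 and 94.7 CPM, and the LCDM (EPS) libraries 86.3, 81.2 and 73.5 CPM. NHSM-v held 72.5, 67.4 and 71.1 CPM. These 9 libraries all lay above every primed library, without overlap. The 4i/L/b libraries followed with 59.8, 46.3 and 55.3 CPM, then TL2i with 39.4, 40.7 and 38.9 CPM. TL-CDK8/19i libraries held 30.1, 30.0 and 29.2 CPM, and E-NHSM libraries 20.4, 17.7 and 16.5 CPM. In this order, from t2iLGöY through E-NHSM to primed cells, the ranges of no neighbouring groups overlapped.

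The rise of CDK19 against primed cells was 3.05 ± 0.20 (SE) on the log2 scale in t2iLGöY (adjusted p = 6.3e-09, edgeR's quasi-likelihood test with Benjamini-Hochberg adjustment over all genes, used for all adjusted p-values on levels), 2.81 in LCDM (EPS) (adjusted p = 2.5e-08) and 2.59 in NHSM-v (adjusted p = 3.6e-08). It was 2.19 in 4i/L/b (adjusted p = 9.5e-07), 1.79 in TL2i (adjusted p = 1e-05) and 1.33 in TL-CDK8/19i (adjusted p = 0.00027). In E-NHSM the difference of 0.67 ± 0.26 missed the threshold (adjusted p = 0.07, 95% interval 0.12 to 1.22), although all 3 libraries lay above the 6 primed ones. It passed with upper-quartile normalization (0.74, adjusted p = 0.044) and with all 8 groups in 1 fit (0.67, adjusted p = 5e-04). The 7 comparisons share the primed libraries.

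Neural marker genes moved with CDK19 in part. Their summed level was highest in LCDM (EPS), at 4044 to 4407 CPM, whereas CDK19 was highest in t2iLGöY. The sum was 2889 to 3201 CPM in t2iLGöY, 1888 to 1967 CPM in NHSM-v and 957 to 1016 CPM in 4i/L/b. TL2i held 638 to 664 CPM and TL-CDK8/19i 322 to 392 CPM. In E-NHSM, where CDK19 lay above the primed libraries, the sum of 120 to 152 CPM was below the primed range. The part of these genes in the CDK19 result was not tested. In bulk RNA, a change in the number of cells that express a gene and a change in its level per cell cannot be told apart.

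CDK8, the founding kinase of the module, was at 64.4 to 79.3 CPM in the 6 primed libraries (median 70.6). TL-CDK8/19i libraries held 71.8, 73.0 and 77.2 CPM, and TL2i libraries 58.3, 52.7 and 51.5 CPM. The 4i/L/b libraries held 55.3, 46.4 and 60.5 CPM. The TL2i and 4i/L/b libraries all lay below the primed range, whereas the TL-CDK8/19i libraries lay within it. CDK8 fell by 0.43 on the log2 scale in 4i/L/b (SE 0.12, adjusted p = 0.0082) and by 0.39 in TL2i (SE 0.11, adjusted p = 0.01). Each call rested on 1 library, since the adjusted p was 0.063 without 4i/L/b replicate 2 and 0.061 without TL2i replicate 3. In TL-CDK8/19i the difference from primed cells was 0.01 with a 95% interval of -0.22 to 0.25. In E-NHSM (54.4 to 60.6 CPM) and t2iLGöY (58.1 to 60.5 CPM) the libraries also lay below the primed range, at differences of -0.28 (adjusted p = 0.1) and -0.22 (adjusted p = 0.14). Both passed with all 8 groups in 1 fit (-0.28, adjusted p = 0.022, and -0.25, adjusted p = 0.024). NHSM-v and LCDM (EPS) overlapped with primed cells, and in the order of the 8 group means of CDK8 every neighbouring pair overlapped.

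**Figure D1:**
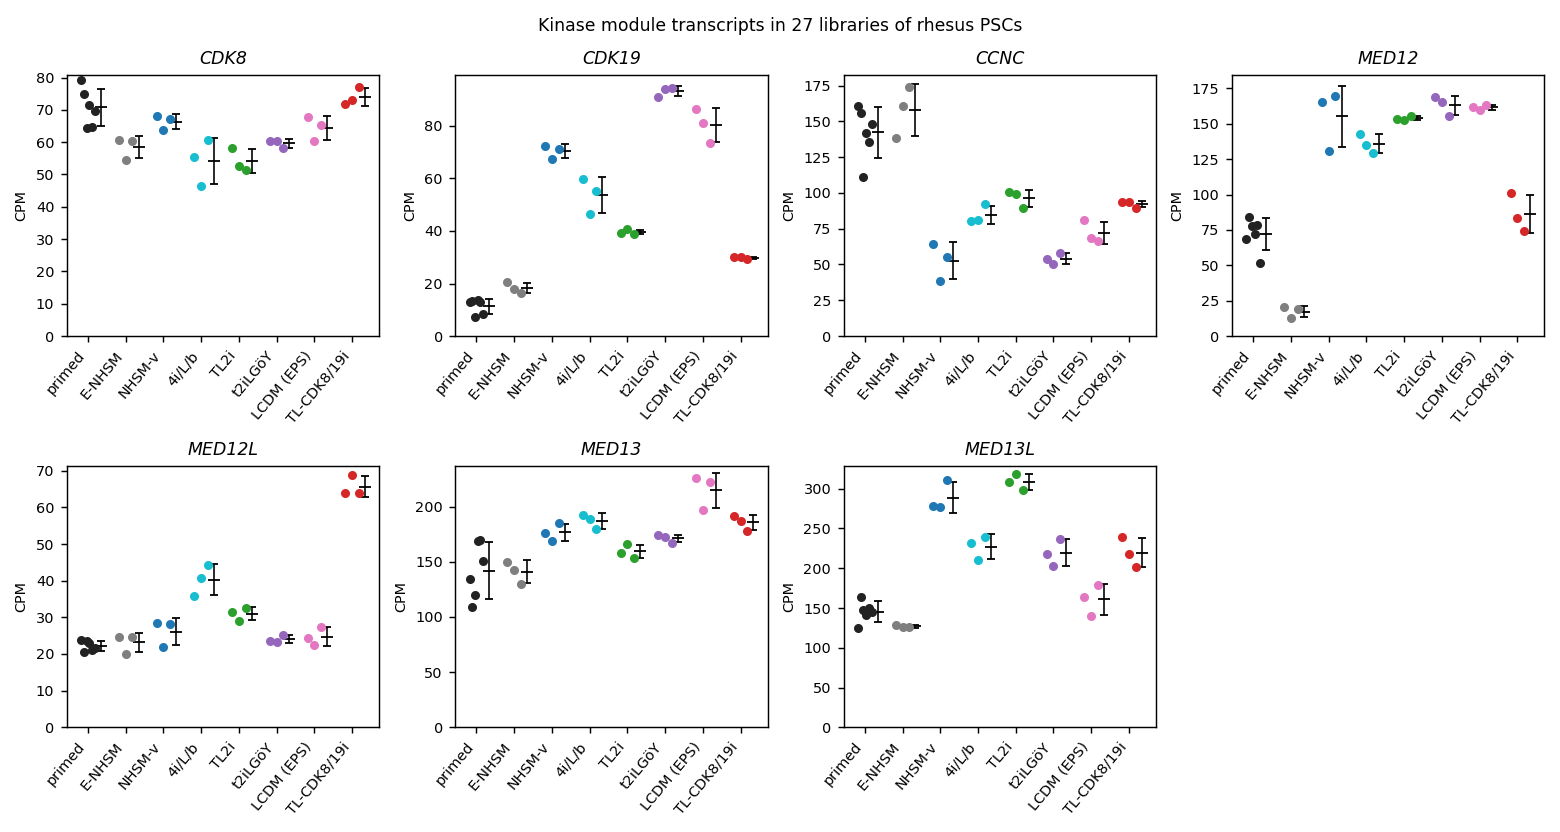
Levels of the 7 kinase module genes in the 27 libraries, in CPM on a linear axis that differs from gene to gene. There is 1 point per library, and bars show the mean and SD of each group. CDK19 is the gene in which no neighbouring groups in the order of means overlap, CDK8 the one in which all do, and MED12 has its lowest points in the 3 E-NHSM libraries at 12.7 to 20.2 CPM.

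Because the kinases compete for the same cyclin and scaffold, the counts of CDK19 and CDK8 were also divided within each library. This removes library scaling, and the ratio is given as a quantity of reads, not of molecules. Primed libraries held 0.111 to 0.198 CDK19 reads per CDK8 read. The ratio was 1.51 to 1.63 in t2iLGöY, 1.13 to 1.34 in LCDM (EPS), 1.06 in all 3 NHSM-v libraries and 0.913 to 1.08 in 4i/L/b. It was 0.675 to 0.772 in TL2i, 0.378 to 0.419 in TL-CDK8/19i and 0.274 to 0.337 in E-NHSM. All 7 protocols lay above the primed range, by 1.98-fold in E-NHSM to 9.93-fold in t2iLGöY. Each gave p = 0.012 in a two-sided exact permutation test, the smallest that 3 against 6 libraries allow, and 0.018 after Benjamini-Hochberg adjustment over the 21 tests on ratios.

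CCNC encodes cyclin C, the partner that both kinases need. Its mRNA moved opposite to CDK19: it was lower than in primed cells in 6 of 7 protocols, by 1.48-fold in TL2i to 2.75-fold in NHSM-v, and did not pass the test in E-NHSM. Primed libraries ran from 111 to 161 CPM (median 145). NHSM-v libraries held 64.3, 38.6 and 54.9 CPM, and t2iLGöY libraries 54.1, 50.6 and 57.7 CPM. LCDM (EPS) libraries held 80.9, 68.7 and 66.2 CPM. All 9 lay well under the lowest primed library. The 4i/L/b libraries ran from 80.6 to 92.1 CPM, TL-CDK8/19i from 89.7 to 93.7 CPM and TL2i from 89.5 to 100 CPM, also without overlap with primed cells but overlapping with each other where they were neighbours. E-NHSM held 139, 161 and 174 CPM and overlapped with primed cells.

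On the log2 scale CCNC changed by -1.46 ± 0.16 (SE) in NHSM-v (adjusted p = 1.5e-06), by -1.37 ± 0.13 in t2iLGöY (adjusted p = 3.6e-07) and by -0.98 ± 0.12 in LCDM (EPS) (adjusted p = 1.2e-05). The changes were -0.79 in 4i/L/b (adjusted p = 6.3e-05), -0.68 in TL-CDK8/19i (adjusted p = 0.00031) and -0.57 in TL2i (adjusted p = 0.0011). The difference in E-NHSM was 0.14 (adjusted p = 0.4, 95% interval -0.10 to 0.39). These 6 calls held in all alternative settings. CDK19 rose in the same 6 protocols in which CCNC fell. Over the 27 libraries the Pearson correlation of their log2 CPM was -0.86, a description in which the points share protocol and library.

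**Figure D2:**
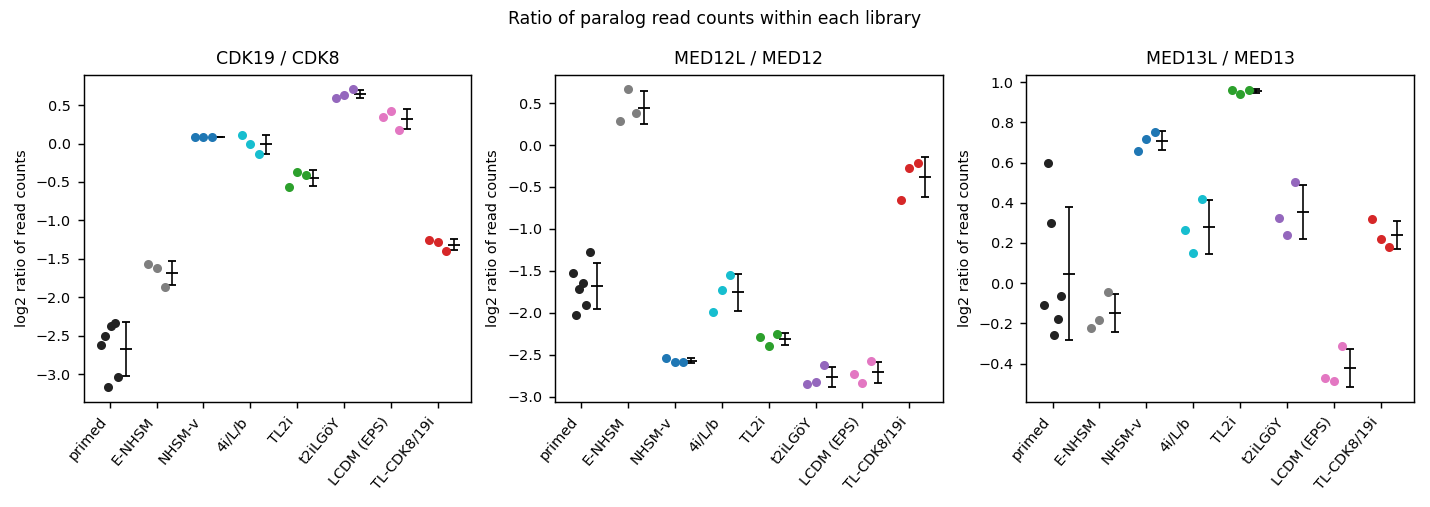
Read-count ratio of 3 paralog pairs within each library (CDK19 over CDK8, MED12L over MED12, MED13L over MED13) on a log2 axis by group, with points for libraries and bars for the mean and SD of each group. CDK19 over CDK8 is above the primed points in 7 of 7 protocols, while MED12L over MED12 is above them in E-NHSM and TL-CDK8/19i and below them in NHSM-v, TL2i, t2iLGöY and LCDM (EPS).

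MED12, the subunit that switches on the kinase through cyclin C, had the widest spread of group means of the 7 genes, at 9.45-fold. This span was wider than in 88.8% of genes. MED12 rose in 5 protocols, fell in E-NHSM and did not pass the test in TL-CDK8/19i. Primed libraries held 52.0 to 84.1 CPM (median 75), and the E-NHSM libraries 20.2, 12.7 and 18.9 CPM. MED12 was therefore 4.19-fold lower in E-NHSM (log2 change -2.07 ± 0.19, adjusted p = 2.4e-07) and the other 6 genes did not pass there. Its paralog MED12L did not pass in E-NHSM, where its libraries held 24.7, 20.1 and 24.7 CPM against 20.6 to 23.9 CPM in primed cells (log2 difference 0.05, 95% interval -0.34 to 0.44).

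In the protocols with higher MED12, the 3 libraries held 169, 165 and 156 CPM in t2iLGöY and 162, 160 and 163 CPM in LCDM (EPS). NHSM-v held 165, 131 and 170 CPM and TL2i 153, 153 and 156 CPM. In 4i/L/b the libraries held 143, 135 and 129 CPM. All 15 lay above the primed range. On the log2 scale the rise was 1.20 ± 0.13 in t2iLGöY (adjusted p = 1.6e-06), 1.17 in LCDM (EPS) (adjusted p = 2.5e-06), 1.09 in TL2i (adjusted p = 7.9e-06), 1.08 in NHSM-v (adjusted p = 7.7e-06) and 0.87 in 4i/L/b (adjusted p = 5.9e-05). The neighbours in the order t2iLGöY, LCDM (EPS), NHSM-v and TL2i, overlapped. TL-CDK8/19i libraries held 101, 83.3 and 74.3 CPM and overlapped with primed cells (log2 difference 0.20, adjusted p = 0.29, 95% interval -0.12 to 0.52).

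MED12L, which can take the place of MED12 in the module, had its highest level under the CDK8 and CDK19 inhibitor. It was at 64.0, 68.9 and 63.9 CPM in the 3 TL-CDK8/19i libraries against 20.6 to 23.9 CPM (median 22.3) in the primed ones, 2.84-fold higher (log2 change 1.51 ± 0.13, adjusted p = 4e-07). The 4i/L/b libraries held 35.9, 40.7 and 44.2 CPM (0.81 ± 0.14, adjusted p = 0.00026), and TL2i libraries 31.4, 29.0 and 32.5 CPM (0.47 ± 0.15, adjusted p = 0.015). No libraries of these 3 groups overlapped with each other or with primed cells. The TL2i call was lost without TL2i replicate 1 (adjusted p = 0.059) or replicate 3 (adjusted p = 0.076). In NHSM-v, t2iLGöY and LCDM (EPS) MED12L ran from 21.8 to 28.4 CPM, overlapped with primed cells and did not pass the test. Summed fibroblast markers were 8685 to 11242 CPM in TL-CDK8/19i, 11593 to 15060 CPM in 4i/L/b, 7830 to 8370 CPM in NHSM-v and 1105 to 2380 CPM in primed cells. Summed endoderm and trophoblast markers were 152 to 241 CPM in TL-CDK8/19i, 52.0 to 88.2 CPM in TL2i and at most 19.4 CPM elsewhere. The part of either list in the MED12L result was not tested.

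The balance of MED12L to MED12 reads therefore shifted in both directions. Primed libraries held 0.245 to 0.415 MED12L reads per MED12 read. The ratio was 1.22 to 1.58 in E-NHSM, where MED12 was lower, and 0.634 to 0.861 in TL-CDK8/19i, where MED12L was the member that rose. It was 4.36-fold and 2.46-fold that of primed cells. It was lower, at 0.540 of the primed ratio in NHSM-v, 0.645 in TL2i, 0.471 in t2iLGöY and 0.489 in LCDM (EPS), where the libraries ran from 0.139 to 0.209 in all. Each of these 6 groups was separate from primed cells (p = 0.012, two-sided exact permutation test, adjusted p = 0.018). The TL2i call was lost, at an adjusted p of 0.05, without primed library J1, J3 or K1. In 4i/L/b, where both genes rose, the ratio was 0.252 to 0.342 and did not differ beyond the spread of the libraries (p = 0.68, exact permutation test).

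MED13L, 1 of the paralogous subunits that tie the module to core Mediator, was higher than in primed cells in 5 protocols, up to 2.12-fold in TL2i. Primed libraries ran from 125 to 164 CPM (median 146). TL2i libraries held 308, 319 and 299 CPM and NHSM-v libraries 278, 278 and 311 CPM, close to each other and apart from the rest. The 4i/L/b libraries held 232, 210 and 240 CPM, t2iLGöY 218, 203 and 237 CPM and TL-CDK8/19i 239, 218 and 202 CPM, and these 3 groups overlapped. On the log2 scale MED13L rose by 1.08 ± 0.09 (SE) in TL2i (adjusted p = 2.4e-07), 0.97 in NHSM-v (adjusted p = 2.3e-07), 0.62 in t2iLGöY (adjusted p = 6.7e-05), 0.60 in 4i/L/b (adjusted p = 6.1e-05) and 0.54 in TL-CDK8/19i (adjusted p = 0.00041). It did not pass in LCDM (EPS), with 163, 141 and 179 CPM (0.15, adjusted p = 0.24), or in E-NHSM, with 129, 126 and 126 CPM (-0.20, adjusted p = 0.15).

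MED13, the other tether, varied little. Its group means spanned 1.53-fold, wider than in 6.43% of genes, and it passed the test in LCDM (EPS) and 4i/L/b. Primed libraries ran from 109 to 170 CPM (median 143), and they split by the letter in their column names, with 135, 109 and 120 CPM in the J columns and 169, 170 and 151 CPM in the K columns. LCDM (EPS) libraries held 226, 197 and 222 CPM and 4i/L/b libraries 193, 189 and 179 CPM, above both sets. MED13 rose by 0.60 ± 0.13 on the log2 scale in LCDM (EPS) (adjusted p = 0.0015) and by 0.35 ± 0.13 in 4i/L/b (adjusted p = 0.035). Against the J columns alone the changes were 0.85 and 0.61, and against the K columns alone 0.40 (adjusted p = 0.0013) and 0.17 (adjusted p = 0.065), so that the call in 4i/L/b depended on the primed set. It was also lost without primed library J1 (adjusted p = 0.063) or any of the 4i/L/b libraries 1, 2 and 3 (adjusted p = 0.099, 0.097 and 0.063).

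In the other protocols MED13 differed by 0.33 in TL-CDK8/19i (adjusted p = 0.052), 0.30 in t2iLGöY (adjusted p = 0.071), 0.29 in NHSM-v (adjusted p = 0.074), 0.16 in TL2i (adjusted p = 0.33) and -0.02 in E-NHSM (adjusted p = 0.94) on the log2 scale. Against the J columns alone, MED13 passed in TL-CDK8/19i (0.58), t2iLGöY (0.52), NHSM-v (0.56) and TL2i (0.40), and against the K columns alone it passed in none of these, at 0.14, 0.08, 0.09 and -0.05. In TL-CDK8/19i, t2iLGöY and NHSM-v MED13 also passed with DESeq2 (adjusted p = 0.017, 0.041 and 0.028), with at least 10 counts in every library (0.021, 0.024 and 0.03), with all 8 groups in 1 fit (0.0018, 0.021 and 0.0074), and without primed library K1 (0.024, 0.045 and 0.019) or K2 (0.028, 0.046 and 0.02). Between the K and J columns themselves 0 of the 7 genes passed the edgeR test and 1, MED13, had an unadjusted p under 0.05 (log2 difference 0.42, adjusted p = 0.051), while 3.73% of all genes passed. The titles of the labels put the primed libraries in sets named Primed and Primed 2, with 3 libraries in each, and the protocol field uses 3 names for them. No source used here ties these names to the letters.

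MED13L reads per MED13 read were 0.835 to 1.51 in primed libraries. The ratio was 1.92 to 1.95 in TL2i, 1.87-fold higher (p = 0.012, exact permutation test, adjusted p = 0.018), and 1.58 to 1.68 in NHSM-v, 1.58-fold higher (p = 0.024, exact permutation test, adjusted p = 0.033). LCDM (EPS) libraries, at 0.714 to 0.806, lay below the primed range without passing the test (p = 0.06, exact permutation test, adjusted p = 0.078). The other 4 protocols overlapped with primed cells. Both calls on this ratio were lost, at an adjusted p of 0.05, without primed library J1, K1, K2 or K3, and the NHSM-v call also without J3.

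**Figure D3:**
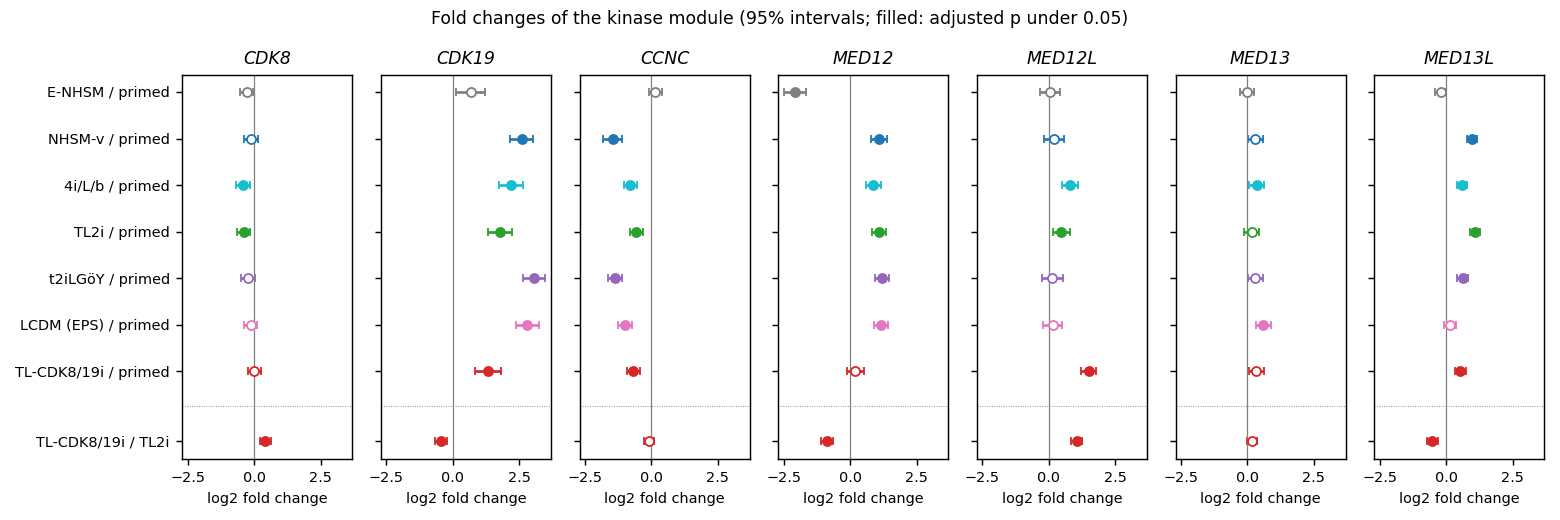
Log2 change of each kinase module gene in 8 comparisons (7 protocols against primed cells, and TL-CDK8/19i against TL2i), with points for edgeR's estimate and bars for the 95% interval. CDK19 is above 0 in all 7 protocols and past the threshold in 6, and CCNC is below 0 in 6. In the comparison with TL2i MED12L lies at 1.05 and MED12 at -0.87.

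The comparison of TL-CDK8/19i with TL2i asks what went with exchanging MEK and GSK3β inhibition for inhibition of CDK8 and CDK19, with tamoxifen in both. Between them 5 of the 7 genes passed the test, and in the CDK8 and CDK19 pair and the MED12 and MED12L pair the members moved in opposite directions. CDK8 and MED12L were higher in TL-CDK8/19i, and CDK19, MED12 and MED13L were lower. Of all genes, 64.9% passed between these media (31.5% higher and 33.3% lower in TL-CDK8/19i), so that 5 of 7 is close to the share of all genes.

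CDK8 was 1.34-fold higher in TL-CDK8/19i, at 71.8 to 77.2 CPM against 51.5 to 58.3 CPM in TL2i (log2 change 0.42 ± 0.10, adjusted p = 0.0016). CDK19 was 1.36-fold lower, at 29.2 to 30.1 CPM against 38.9 to 40.7 CPM (-0.45 ± 0.11, adjusted p = 0.0024). The groups overlapped for neither kinase. MED12L was 2.07-fold higher, at 63.9 to 68.9 CPM against 29.0 to 32.5 CPM (1.05 ± 0.10, adjusted p = 9.4e-07), and MED12 was 1.83-fold lower, at 74.3 to 101 CPM against 153 to 156 CPM (-0.87 ± 0.11, adjusted p = 1.4e-05). The larger change was thus in the subunits that activate the kinases. MED13L was 1.44-fold lower, at 202 to 239 CPM against 299 to 319 CPM (-0.52 ± 0.09, adjusted p = 0.00024). MED13 held 192, 187 and 178 CPM against 158, 166 and 154 CPM, without overlap, and missed the threshold (0.19, adjusted p = 0.068, 95% interval 0.0039 to 0.37), but passed with DESeq2 (0.21, adjusted p = 0.046) and without TL2i replicate 2 (0.25, adjusted p = 0.033). CCNC overlapped between the media (-0.10, adjusted p = 0.37, 95% interval -0.29 to 0.10).

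In 6 of the 7 genes the CPM of the 3 TL-CDK8/19i libraries did not overlap with those of TL2i, as was the case for 70.3% of all genes. Within libraries, CDK19 reads per CDK8 read were 1.82-fold lower, MED12L per MED12 were 3.81-fold higher and MED13L per MED13 were 1.64-fold lower in TL-CDK8/19i. None of the 3 ratios overlapped between the media, and each gave p = 0.1 in a two-sided exact permutation test, the smallest that 3 against 3 libraries allow. Pluripotent cell markers summed to 1514 to 2118 CPM in TL-CDK8/19i and 425 to 514 CPM in TL2i, and the part of this difference in the module's values was not tested.

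The core Mediator subunits, to which the module binds, were measured as 26 genes that all passed the filter on low counts. Of the 26, 3 were higher and 0 lower in E-NHSM (26.2% of all genes were called), 4 and 6 in NHSM-v (58.6%), 2 and 8 in 4i/L/b (55.6%), 3 and 5 in TL2i (50.7%), 3 and 3 in t2iLGöY (54.3%), 7 and 4 in LCDM (EPS) (57.1%), and 3 and 8 in TL-CDK8/19i (46.1%). The module and the core were not tested against each other. Their median log2 difference was between -0.25 (4i/L/b) and 0.05 (LCDM (EPS)). Of the head subunits, which contact the polymerase, MED20 fell in 5 protocols, by up to 1.11 on the log2 scale in NHSM-v (115 ± 14.2 CPM in primed cells, 54.1 ± 9.77 CPM in NHSM-v, SD, adjusted p = 8.9e-06). Of the tail and metazoan subunits, which receive activators, MED30 fell in 4 protocols and MED24 rose in 4, at most by 0.78 in LCDM (EPS) (adjusted p = 0.00012). MED14, the backbone of the complex, was lower in 3 protocols and higher in TL-CDK8/19i (0.65, adjusted p = 2e-04).

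Between TL-CDK8/19i and TL2i, 6 of 26 core subunits were higher and 8 lower under the CDK8 and CDK19 inhibitor, where 31.5% and 33.3% of all genes were. MED21, a middle subunit at the hinge of the complex, was 2.31-fold higher (109 ± 14.1 CPM against 46.3 ± 2.03 CPM, SD, adjusted p = 3.3e-07). MED20 rose by 0.64 on the log2 scale (adjusted p = 0.00015). MED26, the subunit that core Mediator carries when the kinase module is absent, changed by -0.81 (11.2 ± 1.44 CPM against 19.2 ± 0.611 CPM, adjusted p = 6e-04), and the tail subunit MED16 by -1.26 (adjusted p = 1.5e-06). MED26 was also lower than in primed cells in TL-CDK8/19i (-1.11, adjusted p = 0.001).

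Of the other transcriptional kinases and their cyclins (9 genes), 0 to 2 were higher and 0 to 7 lower than in primed cells in a given protocol, with the 7 lower in TL-CDK8/19i. Of all genes, 11.1% to 28.2% were higher and 15.1% to 30.6% lower in these comparisons. CDK7, the kinase of TFIIH, fell in 6 protocols, by up to 1.74 on the log2 scale in NHSM-v (adjusted p = 2e-07), where CDK19 rose by 2.59. Of the 4 genes of the complex that holds P-TEFb inactive, 0 were higher and 2 to 3 lower in a given protocol. LARP7 and MEPCE, which bind the 7SK RNA, were lower in all 7 protocols. Log2 changes ran from -3.06 to -0.99 for LARP7 and from -1.65 to -0.40 for MEPCE. Among 8 super-enhancer partners and cohesin genes, 0 to 5 were higher and 2 to 5 lower in a given protocol. STAG2, a cohesin subunit, was lower in all 7 protocols (log2 changes from -1.04 to -0.40). Of the other cohesin genes, SMC3 was lower in 5 protocols and higher in 1, and RAD21 was higher in 3 and lower in 0. STAG1 and SMC1A were each higher in 2 and lower in 1. NIPBL, of the same list, was lower in 5 and higher in 1. How many of all genes were lower in all 7 protocols was not counted.

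Genes for known kinase module substrates and the ligase FBXW7, which marks phosphorylated targets for degradation, numbered 8. Between 2 and 4 of them were higher and 0 to 2 lower than in primed cells in each protocol, beside the same shares of all genes (11.1% to 28.2% higher and 15.1% to 30.6% lower). SREBF1, the lipid synthesis factor whose nuclear form the kinases mark for turnover, was 2.53-fold higher in TL-CDK8/19i (104 ± 0.340 CPM against 39.9 ± 11.3 CPM, SD, adjusted p = 7e-05) and 2.85-fold higher in E-NHSM (adjusted p = 7.5e-06). It was also higher in TL2i (1.68-fold, adjusted p = 0.0079) and 4i/L/b (1.62-fold, adjusted p = 0.011), and it was lower in LCDM (EPS) (log2 change -0.89, adjusted p = 0.0048). NOTCH1, a receptor whose intracellular domain the kinases phosphorylate, changed by -0.88 on the log2 scale between TL-CDK8/19i and TL2i (adjusted p = 1.3e-05). Against primed cells NOTCH1 was higher in 4 protocols and lower in 2. It was 2.59-fold higher in LCDM (EPS) (adjusted p = 8.6e-08), and its log2 change was -0.76 in E-NHSM (adjusted p = 0.00013). SMAD3, the TGFβ effector, rose in 5 protocols, most in NHSM-v (2.61-fold, adjusted p = 9.1e-08).

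Each member was last set beside the 9914 better measured genes by the Pearson correlation of log2 CPM over the 27 libraries, a description in which libraries of a protocol are not independent. CDK19 was most like SRGAP3 (r = 0.97) and APLP1 (r = 0.97), and CCNC most like ESRP1 (r = 0.94) and ATP5A1 (r = 0.94). MED12 was most like MTA2 and WHSC1 (r = 0.96 for each), MED13L most like SRGAP2 (r = 0.95) and PCDH19 (r = 0.93), and MED12L most like RRM2B (r = 0.94) and BLOC1S2 (r = 0.91). By Pearson's r, the likeness was lower for the genes that varied least, MED13 (DYNC1LI2, r = 0.88, and RAB22A, r = 0.87) and CDK8 (GSPT1, r = 0.84, and CHD5, r = 0.82). This order did not hold for the Spearman correlation of the same pairs. It was 0.76 and 0.71 for MED12L, 0.88 and 0.76 for CDK8, and 0.85 for both pairs of MED13. Within the module, CDK19 correlated with MED13 at r = 0.71 and MED12 at r = 0.68, CCNC with MED12 at r = -0.74, and CDK8 with CDK19 at r = -0.32.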

How the data were processed

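Library preparation used a directional mRNA kit on 200 ng of RNA. The authors deposited raw read counts per gene symbol. Their processing notes, per the labels, name bcl2fastq, cutadapt, HISAT2 and HTSeq, and the genome build, annotation and handling of shared reads are not given in the sources used here, so that reads common to paralogs may be dropped or split. Here, groups came from the labels. Primed columns J and K were taken as 1 group. Each comparison was fitted on its own groups with edgeR 4.0.16 (R 4.3.3; TMM, filterByExpr, quasi-likelihood test, Benjamini-Hochberg threshold 0.05 over all genes). CPM used TMM factors of 27 libraries, and ratios used counts plus 0.5. Intervals are 95%. Scripts were tested on simulated data. Alternatives were DESeq2 1.42.0, other scalings and filters, 1 shared fit, left-out libraries and primed sets by letter.

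The genes and lists were chosen with earlier results of these data known. Besides the 7 module genes, the text names, per list and comparison, from the genes with the largest rise or fall past the threshold, genes past it in all 7 protocols, and the 2 genes most correlated with each member. Counts of protocols are given for genes so named. No paralog sequence or coordinate was used here. A gene of the substrate list that this rule would name is not reported here.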

Additional observations from a re-analysis of the deposited data

Results flagged for a closer look

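The effect of TL2i and of TL-CDK8/19i on 5 module genes differed by edgeR's test of the difference itself. TL-CDK8/19i was higher for CDK8 (log2 difference 0.42) and MED12L (1.05), and lower for CDK19 (-0.45), MED12 (-0.87) and MED13L (-0.52), in 3 of 3 libraries against 3 of 3 in each gene. With 64.9% of all genes past the same threshold, such differences were common between these media.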

How the results depend on the processing

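Of the 35 changes of module genes past the threshold, 31 kept it in all alternatives run. The exceptions were CDK8 in 4i/L/b and TL2i, MED12L in TL2i and MED13 in 4i/L/b. The number of module genes past the threshold in E-NHSM was 1, and became 2 with upper-quartile normalization and 3 with all 8 groups in 1 fit. Leaving out 1 library gave 1 in E-NHSM, 4 to 5 in NHSM-v, 5 to 7 in 4i/L/b, 4 to 6 in TL2i, 4 to 5 in t2iLGöY, 4 in LCDM (EPS), 4 to 5 in TL-CDK8/19i and 5 to 6 between TL-CDK8/19i and TL2i. The number of protocols whose ratio differed ranged from 6 to 7 for CDK19 over CDK8, from 5 to 6 for MED12L over MED12 and from 0 to 3 for MED13L over MED13 (0 without primed J1, K1, K2 or K3, and 1 without J3 or any NHSM-v or TL2i library). Leaving out a protocol library sets 2 libraries against 6, where groups without overlap reach an adjusted p of 0.05. The calls lost without a primed library, with 3 libraries against 5, also had an adjusted p of 0.05. Against the J or the K columns alone, the calls on levels were kept for every gene but MED13 in 4i/L/b.

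Directions turned in values that had not passed the threshold. MED13 in E-NHSM became 0.053 with upper-quartile normalization, 0.22 against the J columns, and ran from -0.084 to 0.042 with 1 library left out, above 0 without primed K1, primed K2 or E-NHSM replicate 3. MED13 in TL2i became -0.048 against the K columns. CDK8 in TL-CDK8/19i against primed cells became -0.014 against the J columns and ran from -0.016 to 0.068 with 1 library left out, below 0 without primed J3 or K2. The log2 ratio of MED12L to MED12 in 4i/L/b ran from -0.18 to 0.041, above 0 without 4i/L/b replicate 1 or primed K3, and that of MED13L to MED13 became -0.023 in TL-CDK8/19i against J and 0.017 in E-NHSM against K. The cause was not tested. Without a filter on low counts the median log2 change of all genes moved to 0.15 in 4i/L/b, 0.17 in TL2i and 0.11 in TL-CDK8/19i. With the Spearman correlation or group means, 13 of 14 sets of most similar genes changed.

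TL-CDK8/19i and TL2i share replicate numbers only as names: deviations of same-numbered libraries correlated at -0.13, -0.01 and -0.01, and no library correlated best with its own number. With a replicate block 5 module genes passed, as without it (CDK8 0.42, CDK19 -0.45, MED12 -0.88, MED12L 1.05, MED13L -0.53), and 8420 in place of 8906 genes overall. For the comparisons with primed cells no paired analysis was possible because the primed columns carry no number that the labels match. CDK19 had 50 to 185 counts in the primed libraries.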
